A study of Mus musculus with 4 samples.

Results

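The genes described are 48 transport and metabolism genes of the kidney proximal tubule, chosen by symbol: carriers for phosphate, sugars, organic anions and amino acids, proteins of the brush border and of endocytic uptake, enzymes of gluconeogenesis and of amino acid, fatty acid and xenobiotic metabolism, and the transcription factor Hnf4a. A probe was found by its RefSeq accession for 43 of the 48 symbols, among 16358 symbols on the array. No probe was matched to Slc9a3, Lrp2, Cubn, Meme or Miox, and these are not analysed here. They were measured in RNA of sorted mouse cells on 4 two-colour Agilent arrays. The cells were collecting duct and ureteric bud cells sorted for EGFP from kidneys at postnatal day 1, and every pool carried the CreEGFP transgene driven by the HoxB7 promoter. The knockout cells were HoxB7CreEGFP+; PRR flox/flox, which removes the (pro)renin receptor (gene Atp6ap2) where Cre is active, and the wild-type cells were CreEGFP+ PRR+/+. Knockout RNA was in Cy5 on both knockout arrays, against wild-type pool 1 in Cy3 on array 1 and wild-type pool 2 in Cy3 on array 2. The other 2 arrays carried 1 wild-type pool in both dyes each, pool 1 on the first and pool 2 on the second.

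The proximal tubule takes back most of the filtered solutes. Sodium-coupled carriers in its brush border take up phosphate, glucose and amino acids from the filtrate, basolateral carriers release them or take organic anions from the blood, and the receptors megalin and cubilin bring filtered proteins into the cell. The same cells make glucose from lactate and amino acids and make creatine and arginine precursors. The collecting duct, which arises from the ureteric bud, is a separate lineage from the proximal tubule, which arises from the metanephric mesenchyme.

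Some facts of the arrays bear on every value. The Cy3 channel of knockout array 1 was empty, with 28 probes well above background, so Cy3 measured pool 2 on 2 arrays and pool 1 on 1. Between 18424 and 22713 probes were well above background in Cy5, and between 14936 and 18574 in the other 3 Cy3 channels. The labels are in conflict: sample titles call the knockout arrays wild type and the self arrays knockout, and on the self arrays the description names the other pool than the source name does. Groups here follow the source names of the channels. If the titles were right, every direction of knockout against wild type would turn. The pools compared below as wild type would then be knockout pools. In Cy3, the 2 channels whose source name is pool 2 differed by 0.333 at most on the log2 scale over the 33 proximal tubule genes that could be tested, whereas both stood above the channel of pool 1. Atp6ap2, the targeted gene, had Cy5 log2 levels of 8.08 and 7.72 in the knockout and 8.37 and 8.51 in wild-type pools 1 and 2, a difference of -0.54 ± 0.17 (SE, limma, 2 arrays a group, adjusted p = 0.803). Nothing in the labels says that arrays of a group came from separate animals, so a p-value here reflects array-to-array spread alone. The design names 2 knockout pools, but the labels do not say which pool is on which knockout array. Spread between the knockout arrays may thus be technical or lie between pools. The wild-type arrays carried different RNA pools, whose difference enters the spread.

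The sequences just upstream of 5 of the genes show the elements for which the proximal tubule's regulators are known: HNF1 factors bind sites that contain GTTAAT, and HNF4 factors, among them Hnf4a itself, bind elements such as CAAAGTCCA. Each line gives the 150 bases before a RefSeq transcription start in build GRCm38.p6, 5′ to 3′ on the gene's strand, with GTTAAT or its reverse complement, or CAAAGTCCA, in capitals. They were chosen because they hold such a match and cover the main phosphate carrier, both basolateral organic anion carriers, the heavy subunit of the cystine carrier and Hnf4a.
Slc34a1 (chr13:55399498-55399647, plus strand): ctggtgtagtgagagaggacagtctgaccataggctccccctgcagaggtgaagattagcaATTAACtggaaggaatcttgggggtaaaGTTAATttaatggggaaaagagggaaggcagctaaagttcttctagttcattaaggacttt
Slc22a6 (chr19:8617846-8617995, plus strand): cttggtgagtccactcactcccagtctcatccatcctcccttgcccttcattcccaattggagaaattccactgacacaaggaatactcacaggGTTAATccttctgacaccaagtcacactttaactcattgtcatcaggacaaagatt
Slc22a8 (chr19:8593032-8593181, plus strand): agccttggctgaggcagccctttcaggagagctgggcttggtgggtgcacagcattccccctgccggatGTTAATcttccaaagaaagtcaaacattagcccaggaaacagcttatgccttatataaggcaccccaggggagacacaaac
Slc3a1 (chr17:85028197-85028346, plus strand): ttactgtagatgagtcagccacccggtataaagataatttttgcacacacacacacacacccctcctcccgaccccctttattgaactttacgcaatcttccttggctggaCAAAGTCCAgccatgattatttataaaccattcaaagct
Hnf4a (chr2:163547005-163547154, plus strand): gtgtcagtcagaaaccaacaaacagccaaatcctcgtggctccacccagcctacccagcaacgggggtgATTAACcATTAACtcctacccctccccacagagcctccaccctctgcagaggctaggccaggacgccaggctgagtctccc

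Slc34a1 held GTTAAT letters at 2 places in this window, Hnf4a held them at 2 places side by side, and Slc22a6 and Slc22a8 at 1 place each. In Slc3a1 the capitals mark the HNF4 element. RefSeq start sites were found for 42 of the 48 genes, with 57 windows of 300 bases from 250 before to 50 after a start, searched on both strands. GTTAAT was in 12 of the 57 windows (21.1%) and in 2332 of all 32851 windows of the table (7.10%). CAAAGTCCA was in 2 of the 57 (3.51%) and in 156 of all windows (0.475%). A match is only a description of the letters.

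Proximal tubule genes had far higher signal in wild-type pool 2 than in wild-type pool 1, although both pools have the same genotype. A gene was tested if both knockout arrays, or both wild-type arrays, had its probe well above background in Cy5, and 33 of the 43 genes passed. Among all genes tested, a probe without a symbol counted as a gene under its own accession. That total is therefore not a subset of the symbols on the array. In Cy5, all 33 were higher in pool 2, by a median of 2.04 on the log2 scale (4.12-fold), against a median of -0.041 over all 16030 genes tested. The difference reached 2-fold in 31 of the 33, where 2.39% of all genes did. Cy3 gave a median of 1.56 (2.94-fold) and 24 of 33 genes at 2-fold or more, against 1.39% of all genes. The same 24 were past 2-fold in both dyes, and the Cy5 difference was the larger one in 31 of 33. Pool 1 was not well above background in Cy3 for 13 of the 33 genes, whose Cy3 differences are only bounds. Over the other 20 genes the medians were 2.68 in Cy5 and 2.15 in Cy3, and Cy5 was the larger in 18. With the scanner's processed signal in place of the corrected intensities, the order of the dyes turned, with medians of 2.79 in Cy5 and 3.24 in Cy3 over the 33 genes. Each pool is 1 RNA preparation, so the difference between them has no test. Pool 2 measured in Cy3 on both of its arrays differed from itself by a median of 0.071 over the 33 genes, against 1.56 between the pools. In bulk RNA of this kind, fewer cells of a type and less RNA per cell cannot be told apart.

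The filter let 6 of the 33 genes in through the wild-type arrays alone, where they are high, so counts over the 33 are a description. The 27 genes above background in Cy5 on all 4 arrays gave a median of 2.36, with 27 of 27 higher in pool 2 and 26 at 2-fold or more. Over all 43 genes with a probe, whatever their signal, 42 were higher in pool 2 and the median was 1.67. Cyp4b1, a cytochrome P450, was the exception. The background-subtracted Cy5 intensity summed over the 43 genes was 67632 in pool 2 and 7830.3 in pool 1, and 10448 and 5905 on knockout arrays 1 and 2. These sums are not normalized between arrays. The mean normalized Cy5 level of the 43 genes (log2) was 9.36 in pool 2, 7.53 in pool 1 and 7.33 and 7.28 on the knockout arrays, so pool 2 was high on its own and pool 1 lay slightly above the knockout.

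**Figure D1:**
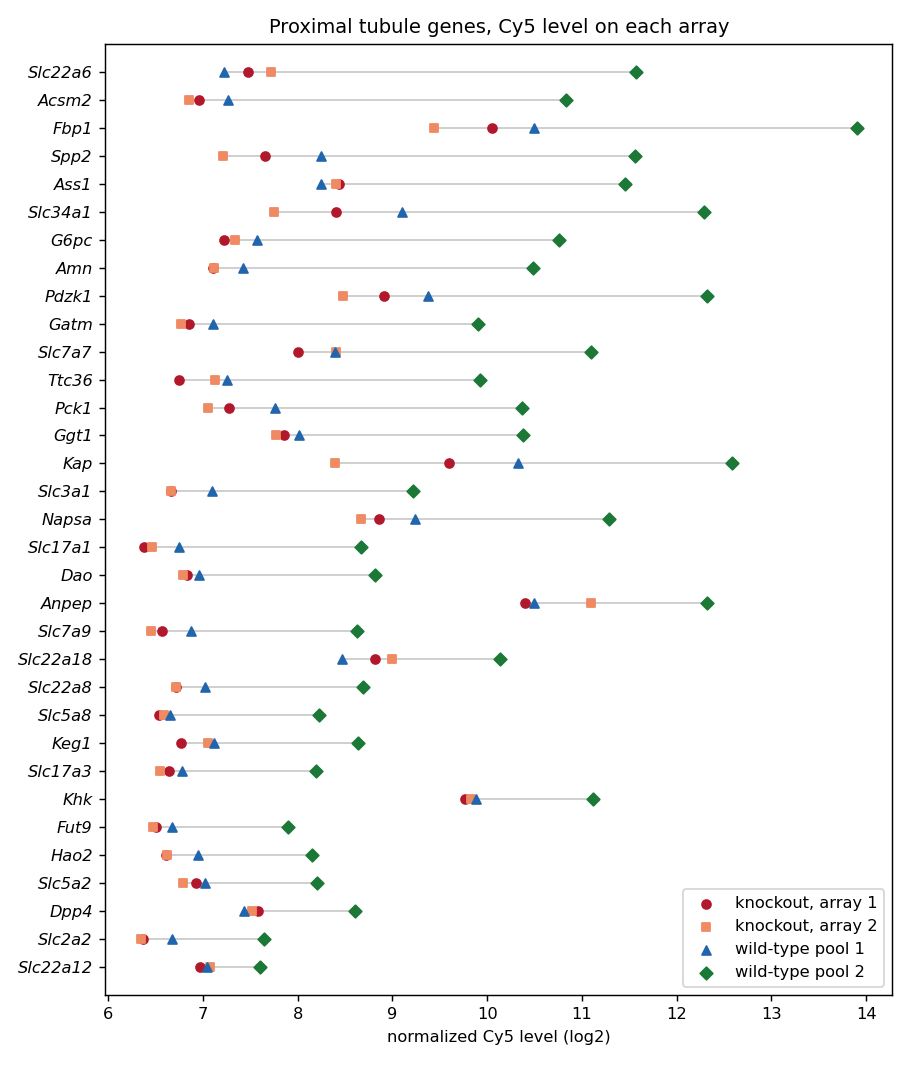
Normalized Cy5 levels (log2, horizontal axis) of the 33 tested proximal tubule genes, 1 row a gene, sorted by the difference between the wild-type pools, with 1 point for each array. Pool 2 is the rightmost point in all 33 rows. Pool 1 lies near the knockout arrays, with both of them to its left in 26 rows. Levels of different genes are not comparable, because each has its own probe.

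Phosphate transport was led by Slc34a1, the main sodium-phosphate cotransporter of the brush border. Its Cy5 log2 level was 8.41 and 7.75 on knockout arrays 1 and 2, 9.11 in pool 1 and 12.29 in pool 2. In Cy3 it was 7.60 in pool 1 and 10.68 and 10.77 in pool 2. Pool 2 was 9.09-fold above pool 1 in Cy5 and 8.71-fold in Cy3, and both knockout arrays were below pool 1. Slc17a1 and Slc17a3, organic anion carriers that were first known as phosphate carriers, were 3.80-fold and 2.66-fold higher in pool 2 in Cy5. A further probe of Slc17a3 was not well above background in Cy5 on any array and gives no size. Slc34a3, the second brush border phosphate carrier, was well above background in Cy5 only in pool 2, at least 2.57-fold above pool 1 in that dye. In Cy3, where both pools were well above background, the difference was smaller, 1.32-fold. Slc13a1, the sodium-sulfate cotransporter, was likewise above background in Cy5 only in pool 2 (at least 1.44-fold).

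The 3 tested sugar and monocarboxylate carriers differed between the pools by a median of 1.19 on the log2 scale in Cy5. Slc2a2, the basolateral glucose carrier, had Cy5 log2 levels of 6.36 and 6.35 on the knockout arrays, not well above background there, 6.68 in pool 1 and 7.64 in pool 2. Its Cy3 level was 6.32 in pool 1 and 6.87 and 6.91 in pool 2. Pool 2 stood alone, at 1.96-fold over pool 1 in Cy5, and pool 1 was not well above background in Cy3. A brighter probe of Slc2a2 was well above background in Cy5 only in pool 2 and did not pass the filter. Slc5a2, the sodium-glucose cotransporter of the early tubule, was 2.28-fold higher in pool 2, and Slc5a8, a sodium-coupled lactate carrier, 2.96-fold. Slc5a1, the high-affinity sodium-glucose cotransporter, did not pass the filter. It was at least 1.44-fold higher in pool 2 than in pool 1 in Cy5, where pool 1 was not well above background. Its Cy3 difference was -0.012 on the log2 scale, with neither pool well above background in that dye.

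Among the organic anion carriers, Slc22a6, the basolateral carrier for para-aminohippurate and many drugs, had the largest difference between the pools of all 33 genes. Its Cy5 log2 level was 7.47 and 7.72 on the knockout arrays, 7.22 in pool 1 and 11.57 in pool 2. Cy3 levels were 6.41 in pool 1, not well above background there, and 10.31 and 10.23 in pool 2. Pool 2 was 20.4-fold above pool 1 in Cy5, and here both knockout arrays were above pool 1. Its neighbour in function, Slc22a8, was 3.18-fold higher in pool 2 by its brightest probe, and of its other 2 probes 1 was well above background in Cy5 only in pool 2 and 1 on no array. The urate exchanger Slc22a12 showed the smallest difference of the 33 genes, 1.48-fold in Cy5, with pool 1 not well above background in Cy3. Slc22a18, a carrier of the same family whose substrates are less well known, was 3.18-fold higher in pool 2 by its brightest probe. On the log2 scale that probe gave 1.67 and the other only 0.45, although both were well above background on all 4 Cy5 arrays. Slc13a3, the basolateral dicarboxylate carrier, was well above background in Cy5 only in pool 2, at least 1.67-fold above pool 1.

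Of the amino acid carriers, Slc7a7, the basolateral light chain for cationic amino acids, was at 8.01 and 8.40 in Cy5 on the knockout arrays, 8.40 in pool 1 and 11.10 in pool 2 (log2 levels). The Cy3 level was 7.37 in pool 1 and 9.72 and 9.80 in pool 2. Knockout and pool 1 overlapped here, and pool 2 was 6.50-fold above pool 1 in Cy5. Slc7a9 and Slc3a1, the light and heavy subunit of the brush border cystine carrier, were 3.36-fold and 4.35-fold higher in pool 2. Slc6a19, the main carrier of neutral amino acids, and Slc6a20b, an imino acid carrier, were not well above background in pool 1 and were at least 1.75-fold and 1.73-fold higher in pool 2.

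Pdzk1 is the scaffold that holds carriers such as Slc34a1 in the brush border. Its Cy5 log2 level was 8.91 and 8.47 on the knockout arrays, 9.38 in pool 1 and 12.32 in pool 2. In Cy3 it was 8.19 in pool 1 and 11.09 and 10.99 in pool 2. Both knockout arrays lay below pool 1, and pool 2 was 7.70-fold above pool 1 in Cy5. Slc4a4, the basolateral sodium-bicarbonate cotransporter, was well above background in Cy5 only in pool 2 (at least 1.29-fold).

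Amn, the membrane anchor of cubilin, stood for protein endocytosis. Its Cy5 log2 level was 7.11 and 7.12 on the knockout arrays, 7.42 in pool 1 and 10.49 in pool 2. Its Cy3 level was 6.86 in pool 1 and 9.16 and 9.24 in pool 2. Pool 2 was 8.37-fold above pool 1 in Cy5, and the knockout arrays were nearly equal and below pool 1. The brush border enzymes differed less than Amn did. Ggt1, which splits glutathione, was 5.13-fold higher in pool 2, Anpep (aminopeptidase N) 3.54-fold and Dpp4 (dipeptidyl peptidase) 2.26-fold by its brightest probe. The other probes of Dpp4 gave 1.03 and 0.35 on the log2 scale, against 1.17. Fut9, a fucosyltransferase listed with them, was 2.34-fold higher by the brightest of its 5 probes. Its other probes were well above background in Cy5 only in pool 2 or on no array.

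The 3 enzymes of gluconeogenesis proper were at least 6.08-fold higher in pool 2. Fbp1, fructose-bisphosphatase, was at 10.05 and 9.44 in Cy5 on the knockout arrays, 10.50 in pool 1 and 13.90 in pool 2 (log2 levels). Cy3 levels were 9.30 in pool 1 and 12.93 and 12.68 in pool 2. Its difference between the pools was 10.6-fold in Cy5 and 11.4-fold in Cy3, so it was 1 of the 2 genes, with Napsa, whose Cy3 difference was not the smaller one. G6pc, the catalytic subunit of glucose-6-phosphatase and last step of the pathway, was at 7.23 and 7.33 on the knockout arrays, 7.58 in pool 1 and 10.76 in pool 2 in Cy5. Cy3 gave 6.96 in pool 1 and 9.57 and 9.56 in pool 2. Pool 2 was 9.09-fold above pool 1 in Cy5 for G6pc, and the knockout arrays were the lowest. Pck1, phosphoenolpyruvate carboxykinase, was at 7.28 and 7.06 on the knockout arrays, 7.76 in pool 1 and 10.36 in pool 2 in Cy5. Cy3 gave 6.96 for Pck1 in pool 1 and 9.02 and 9.18 in pool 2. Pool 2 was 6.08-fold above pool 1 for Pck1, again with the knockout lowest. Khk, the fructose kinase, was 2.37-fold higher in pool 2 in Cy5.

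In amino acid and fatty acid metabolism, Acsm2, which activates medium-chain fatty acids and benzoate, was at 6.96 and 6.85 in Cy5 on the knockout arrays, 7.27 in pool 1 and 10.84 in pool 2 (log2 levels). The Cy3 level was 6.81 in pool 1 and 9.46 and 9.51 in pool 2. The difference between the pools was 11.9-fold in Cy5 and 6.38-fold in Cy3, and its second probe gave 2.93 on the log2 scale against 3.57. Ass1, which makes the arginine precursor argininosuccinate, was at 8.44 and 8.41 on the knockout arrays, 8.24 in pool 1 and 11.45 in pool 2 in Cy5. Cy3 gave 7.21 for Ass1 in pool 1 and 10.17 and 10.09 in pool 2. Pool 1 was the lowest array for Ass1, and pool 2 was 9.23-fold above it. Gatm, the first enzyme of creatine synthesis, was at 6.86 and 6.77 on the knockout arrays, 7.11 in pool 1 and 9.90 in pool 2 in Cy5. Cy3 gave 6.74 for Gatm in pool 1 and 8.83 and 8.70 in pool 2, and the Cy5 difference was 6.95-fold. Hao2, a peroxisomal hydroxyacid oxidase, was at 6.61 and 6.62 on the knockout arrays, 6.94 in pool 1 and 8.15 in pool 2 in Cy5, with 6.36 in pool 1 and 7.12 and 7.06 in pool 2 in Cy3. Pool 2 exceeded pool 1 by 2.31-fold in Cy5 for Hao2, and the knockout arrays were the lowest. Dao, the D-amino acid oxidase, and Keg1, an N-acyltransferase, were 3.64-fold and 2.86-fold higher in pool 2. Cyp4b1 was well above background in Cy5 on knockout array 1 and in pool 1 but not in pool 2, and Cyp2e1 on no array.

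The remaining genes encode other proteins made by these cells. Kap, the kidney androgen-regulated protein, was at 9.60 and 8.39 in Cy5 on the knockout arrays, 10.32 in pool 1 and 12.58 in pool 2 (log2 levels). In Cy3 it was 9.18 in pool 1 and 11.39 and 11.28 in pool 2. Pool 2 was 4.78-fold above pool 1, and the knockout arrays differed from each other by more for Kap than for any other of the 33 genes. Spp2, a secreted phosphoprotein, was at 7.66 and 7.22 on the knockout arrays, 8.25 in pool 1 and 11.56 in pool 2 in Cy5. Cy3 gave 7.31 for Spp2 in pool 1 and 10.23 in both channels of pool 2, and the Cy5 difference was 9.91-fold. Napsa, the lysosomal aspartic protease napsin A, was at 8.86 and 8.67 on the knockout arrays, 9.24 in pool 1 and 11.28 in pool 2 in Cy5. Cy3 gave 7.84 for Napsa in pool 1 and 9.97 and 9.98 in pool 2, so the pools differed by 4.12-fold in Cy5 and 4.38-fold in Cy3. Ttc36, a tetratricopeptide protein, was at 6.74 and 7.13 on the knockout arrays, 7.26 in pool 1 and 9.92 in pool 2 in Cy5, with 6.71 in pool 1 and 8.54 and 8.59 in pool 2 in Cy3. Pool 2 was 6.33-fold above pool 1 for Ttc36 in Cy5, with both knockout arrays below pool 1.

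Hnf4a, the nuclear receptor known to drive many of these genes, was near background. Its brightest probe had Cy5 log2 levels of 6.47 and 6.59 on the knockout arrays, 6.52 in pool 1 and 7.51 in pool 2. Its Cy3 level was 6.26 in pool 1 and 6.77 and 6.81 in pool 2. Pool 1 was not well above background in Cy5, so pool 2 was at least 2.00-fold above it, and of the other 2 probes of Hnf4a 1 was well above background in Cy5 only in pool 2 and 1 on no array. The gene did not pass the filter and was not tested.

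**Figure D2:**
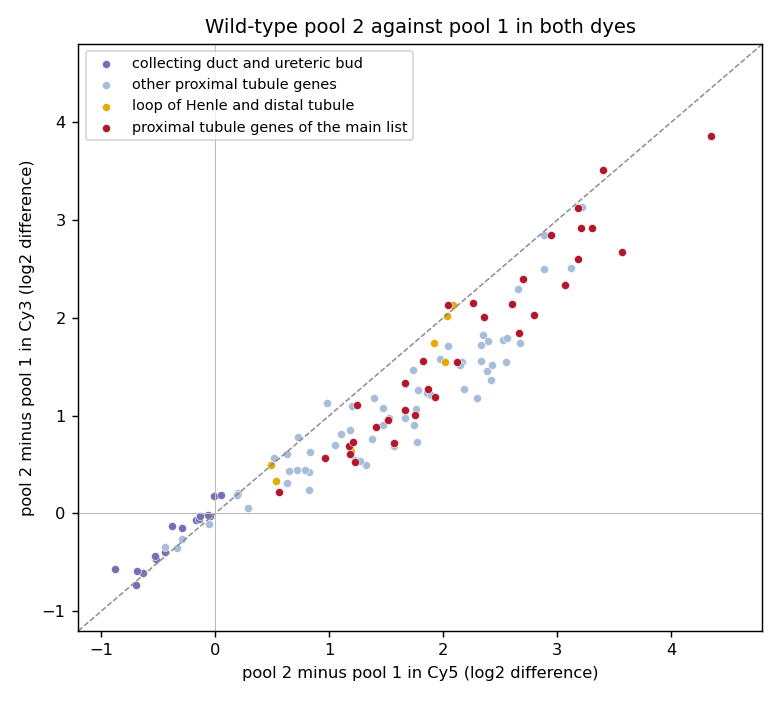
Pool 2 minus pool 1 (log2 difference) in Cy5 (horizontal axis) and in Cy3 (vertical axis, mean of both pool 2 channels), 1 point a gene, with the dashed line marking equal differences. The 33 proximal tubule genes of the main list lie between 0.56 and 4.35 in Cy5, 31 of them below the line, and for 13 of them pool 1 was not well above background in Cy3, whereas 16 of 17 collecting duct and ureteric bud genes are below 0 in Cy5.

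A second list of 85 proximal tubule genes was also higher in pool 2. Of these, 62 could be tested in Cy5, 58 were higher in pool 2 than in pool 1, 44 of them by 2-fold or more, and the median difference was 1.61. Among the largest were Cyp2d26 (a cytochrome P450, 9.30-fold), Prodh2 (hydroxyproline dehydrogenase, 8.68-fold), Folr1 (folate receptor, 7.36-fold), Dpep1 (a brush border dipeptidase, 6.40-fold) and Mep1a (a meprin subunit, 6.29-fold). Mme, the brush border enzyme neprilysin, was at 8.70 and 8.57 on the knockout arrays, 8.74 in pool 1 and 8.94 in pool 2 in Cy5, a difference between the pools of 0.20 on the log2 scale. The listed symbol Meme may stand for Mme, which the RefSeq names do not settle. Mme would then have the smallest Cy5 difference among the tested genes of the main list.

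Of the lists for other kidney cell types, the one for loop of Henle and distal tubule was also higher in pool 2, and the medians of the others were below 0. Of its 13 genes, 8 could be tested, all 8 were higher in pool 2, 6 by 2-fold or more, and the median was 1.55. Its summed background-subtracted Cy5 intensity was 9989 in pool 2, 2191 in pool 1 and 3369 and 1658 on knockout arrays 1 and 2, with 12 of the 13 genes well above background in pool 2 and 8 in pool 1. The 17 collecting duct and ureteric bud genes, which mark the sorted cells, were well above background in Cy5 on all 4 arrays, with a median of -0.29 between the pools and 16 of 17 lower in pool 2. Their background-subtracted Cy5 intensity summed to 46367 in pool 2 and 45073 in pool 1, and to 75204 and 44407 on knockout arrays 1 and 2. Medians of pool 2 minus pool 1 were -0.18 for principal cells (9 genes), -0.36 for intercalated cells (9), -0.09 for podocytes (2), -0.21 for nephron progenitors (6), -0.55 for stroma (8), -0.39 for endothelium (5), -1.21 for erythroid cells (4) and -0.06 for leukocytes (5). Whether pool 2 held cells of the proximal and distal nephron beside collecting duct cells was not tested.

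**Figure D3:**
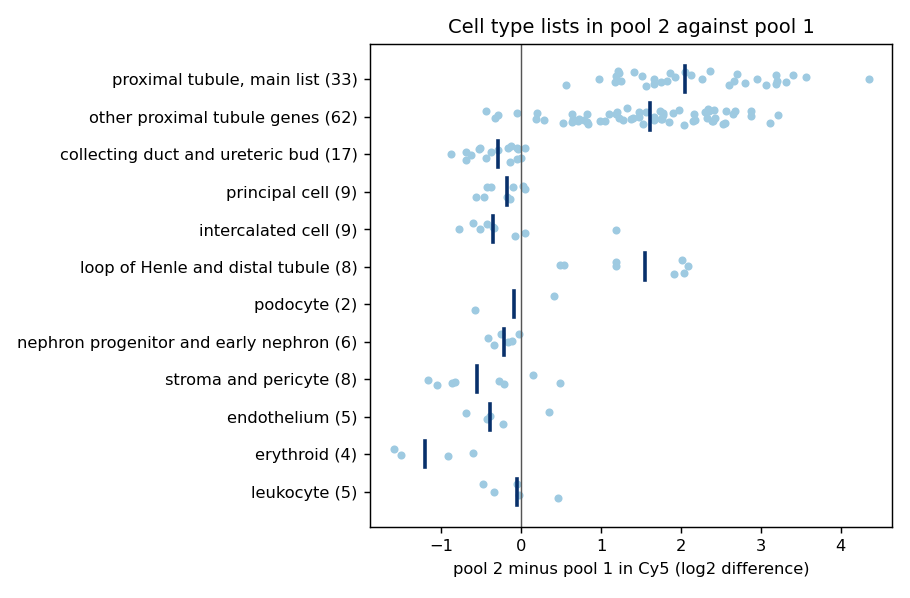
Pool 2 minus pool 1 in Cy5 (log2 difference, horizontal axis) for the tested genes of each cell type list, with 1 point a gene, the number of genes in parentheses and a bar at the median. The proximal tubule lists and the loop of Henle and distal tubule list lie to the right of 0, with medians of 2.04, 1.61 and 1.55; points are spread vertically only to separate them.

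Against both wild-type pools at once, no proximal tubule gene passed the test for a difference in the knockout. The limma fit on Cy5 called 0 of the 33 genes and 0 of all 16030 (0.0%), with a smallest adjusted p of 0.803. At an unadjusted p under 0.05 there were 673 genes in all and 1 of the 33, Kap. The knockout minus wild-type difference had a median of -1.38 over the 33 genes, with all 33 below 0, against 0.024 over all genes. Both knockout arrays lay below both wild-type arrays in 26 of the 33 genes, where 17.2% of all genes did, and in 20 of the 27 genes above background on all 4 arrays.

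The 8 genes with the smallest p in this fit were Kap, Slc34a1, Slc2a2, Hao2, Spp2, Pck1, Pdzk1 and Napsa. Differences on the log2 scale (SE, limma, 2 arrays a group) were -2.46 ± 0.84 for Kap, -2.62 ± 1.06 for Slc34a1, -0.80 ± 0.33 for Slc2a2 and -0.93 ± 0.41 for Hao2. They were -2.46 ± 1.09 for Spp2, -1.90 ± 0.85 for Pck1, -2.16 ± 0.97 for Pdzk1 and -1.49 ± 0.67 for Napsa. The adjusted p of limma was 0.803 for all 8. In each of them pool 2 was at least 1.96-fold above pool 1, and that spread enters the standard errors.

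Set against pool 2, the knockout was much lower, and set against pool 1 it was close. Minus pool 2, the mean of the knockout arrays had a median of -2.52 over the 33 genes, so pool 2 was 5.72-fold higher, and 32 of 33 were at least 2-fold lower in the knockout, where 2.33% of all genes were. Slc34a1 was 18.5-fold, Fbp1 17.8-fold, Spp2 17.4-fold, Slc22a6 15.8-fold and Acsm2 15.2-fold higher in pool 2 than in the knockout. A limma fit of the knockout arrays against pool 2 alone called all 33 lower, with adjusted p from 6.76e-05 to 0.0117, where 10.6% of all genes were called lower. The 27 genes above background on all 4 Cy5 arrays were among them, and the other 6 had passed the filter through the wild-type arrays alone. That fit takes its spread from the 2 knockout arrays and assumes that the single pool 2 array varies like them.

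Minus pool 1, the median over the 33 genes was -0.29, against -0.00019 over all genes. Only Kap (2.51-fold) and Slc34a1 (2.03-fold) were at least 2-fold lower in the knockout mean than in pool 1, where 0.0873% of all genes were. In both, only knockout array 2 was past 2-fold. On the log2 scale, arrays 1 and 2 gave -0.72 and -1.93 for Kap and -0.70 and -1.35 for Slc34a1. Both knockout arrays were below pool 1 in 26 of 33 genes, where 38.4% of all genes were. Some of the 33 passed the filter through the wild-type arrays alone. Over the 27 genes above background on all 4 Cy5 arrays, the count was 20. The median was -0.31 for knockout array 1 and -0.24 for knockout array 2. The mean of the knockout was above pool 1 for 5 genes, with log2 differences of 0.43 for Slc22a18, 0.37 for Slc22a6, 0.25 for Anpep, 0.18 for Ass1 and 0.12 for Dpp4. Pool 1 in Cy5 is a single array, so these differences are given here as sizes only. These comparisons share the knockout arrays, so the values for the 2 pools are side by side and are not independent of each other.

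**Figure D4:**
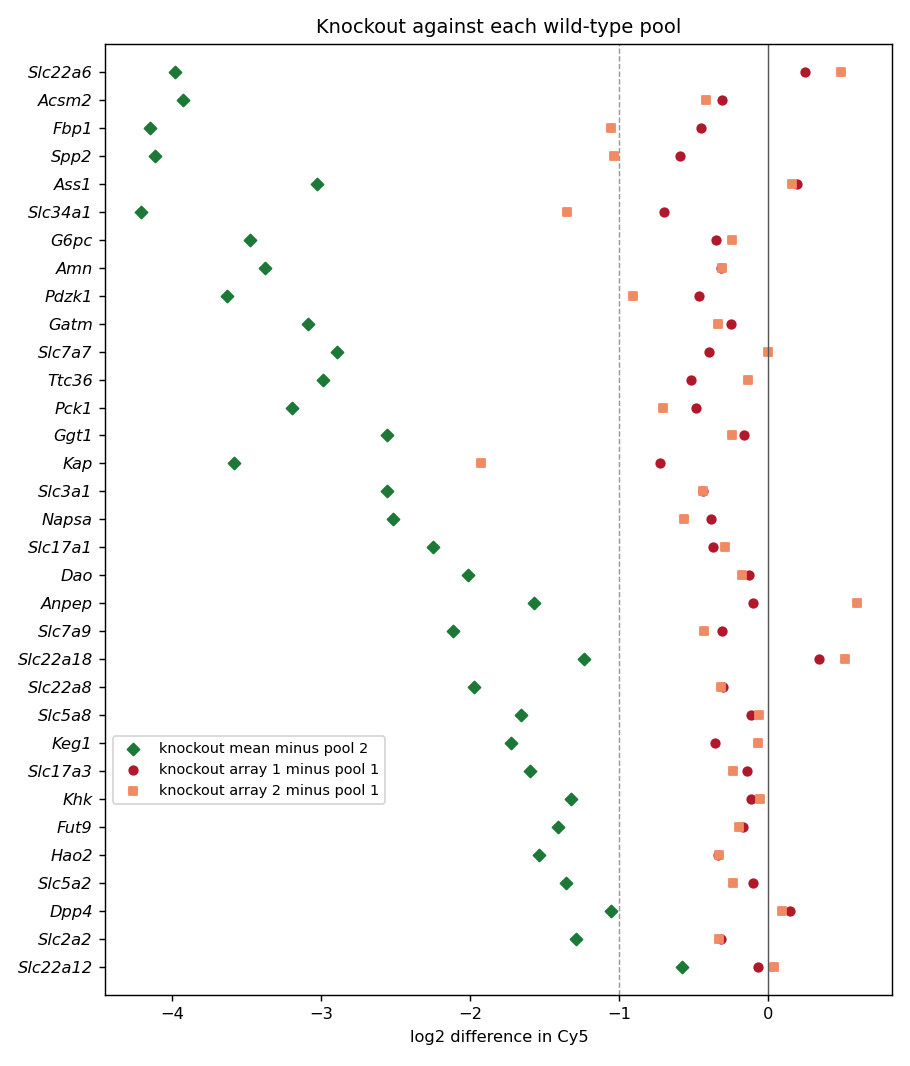
Log2 difference in Cy5 (horizontal axis) of the knockout mean from pool 2 (diamonds) and of each knockout array from pool 1 (circles and squares), 1 row a gene, with lines at 0 and at 2-fold lower. Differences from pool 2 have a median of -2.52, whereas those from pool 1 have medians of -0.31 and -0.24. The latter lie mostly below 0, with both knockout arrays below pool 1 in 26 of 33 genes. Over the 27 genes above background on all 4 Cy5 arrays, that count is 20.

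The knockout arrays also differed between themselves. Array 2 minus array 1 had a median of -0.026 over the 33 genes, with 19 lower and 13 higher, and ranged from -1.21 for Kap to 0.70 for Anpep. The Kap difference between the arrays was close to its mean difference from pool 1, -1.33.

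The array with knockout RNA in Cy5 and pool 2 in Cy3 sets them side by side on the same spots. Its log2 ratio of knockout to pool 2 had a median of -2.41 over the 33 genes and was below 0 in all 33, and 31 were at least 2-fold lower in the knockout, where 2.1% of all genes were. Fbp1 had the lowest ratio, -4.92, followed by Kap at -4.45, Spp2 at -4.43 and Slc34a1 at -4.35, and Slc22a12 the highest, -0.29. On the arrays that carried the same pool in both dyes, ratios of these genes had medians of 0.020 and -0.0045 and lay between -0.18 and 0.42.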

How the data were processed

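Intensities were read from the deposited scanner files, which the authors made with Agilent Feature Extraction 10.7.3.1, per the file headers. The array design is that of the files. A probe was given a gene symbol where its accession matched a single symbol in RefSeq. Probes without a symbol were kept under their own accession. The deposited table of log10 ratios equals the scanner's log ratio (red, Cy5, over green, Cy3) in 45018 of 45018 spots on each of the 4 arrays and entered one alternative only. From the median intensities, background was corrected by normexp (offset 50, which compresses folds of dim genes), and log2 values were quantile-normalized over the 4 Cy5 channels and, separately, the 3 filled Cy3 channels, so levels are not comparable between dyes. Control spots, outlier flags and 340 spots of a dark patch on the pool 1 self array, none of a member of the main list, were left out. Spots of a probe were averaged, and the brightest probe that passed the filter stood for a gene (the brightest of all where none passed). Where a group was not well above background, the other is given as at least N-fold higher, against the lowest signal among probes well above background or the probe's own if higher. For pool 1 in Cy5 the probe's own level was the higher in every such gene. Those figures therefore equal the plain fold between the pools and carry the noise of a dim level.

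Knockout and wild type were compared with limma 3.58.1 in R 4.3.3 (two-sided, Benjamini-Hochberg over 16030 genes, threshold 0.05), checked on simulated data. Differences between single pools have no test, and the shared array was normalized by loess. Named genes are the 12 with the largest pool difference, the 8 with the smallest p, Hnf4a, and the 6 largest of the second list, of which 1 is not reported here; others are given by fold or range, and genes outside these rules that are named were chosen after their values were seen. The genes, lists and rules were chosen with earlier results of these data known. All arrays lay on 1 slide. RNA input was 0.5 µg a reaction, and the 4 arrays limit the precision. The alternatives were the background correction, offset, scaling, dim-probe filter, probe rule, patch, each array left out, a replicate block and ratios within arrays.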

Additional observations from a re-analysis of the deposited data

How the results depend on the processing

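Every alternative kept the sign of the medians over the tested proximal tubule genes, but sizes moved with the treatment of dim signal. Medians of pool 2 minus pool 1 in Cy5, the same in Cy3, knockout minus pool 1 and knockout minus pool 2 were 2.79, 3.24, -0.69 and -3.47 with the scanner's processed signal. They were 2.29, 2.10, -0.40 and -2.76 with an offset of 16, and 1.87, 1.86, -0.37 and -2.33 with 75th percentile scaling. They were 1.71, 1.15, -0.19 and -1.85 (Slc2a2 by its brighter probe -0.96, from -0.80) over the 42 genes above background on at least 1 array, and 1.67, 1.11, -0.18 and -1.72 without a filter (43 genes). With log ratios within arrays, the knockout ratios lay below both self ratios in 13 of 33 genes instead of 26. The Cy3 channel of knockout array 1 was empty, so its ratio does not set knockout against wild type. That count is therefore no check on the 26. On the shared array the median was -1.82 with median centring, -2.52 after subtracting the self ratios and -4.02 from the deposited log10 ratio on the log2 scale, an alternative chosen after seeing the data. Leaving out each array in turn, limma called 0 to 33 of the 33 genes and 0 to 4252 of all genes, the highest without the pool 1 array. Without the pool 2 array 1 gene was called, which is not among the 33, and the sign turned for 5 of the 33 genes, those above pool 1 in the knockout. Of the genes with the largest pool differences or smallest p, 2 were among them: over the arrays left out, Slc22a6 ranged from -3.98 to 0.37 and Ass1 from -3.03 to 0.18, the highest without pool 2 (adjusted p = 0.306 and 0.456). With the replicate number as a block, limma called 0 genes. Deviations of same-numbered arrays correlated at 0.040 across genes, and with 2 numbers the arrays share only a number.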
